A study of Homo sapiens with 12 samples.

Results

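The 10 genes described here lie next to each other on the short arm of chromosome 9, at 9p21, around CDKN2A. They are FOCAD, HACD4, KLHL9, IFNE, MTAP, CDKN2A, CDKN2B-AS1, CDKN2B, DMRTA1 and ELAVL2, taken in the order of their start positions out of the 61533 genes of the files, and 9 of them are protein-coding. They were chosen for their position and because their levels in these libraries were already known to differ among the 3 cell lines, so the levels of the 10 genes are given as a description, with no test. A gene is called silent in a line when its expected count, the estimated number of sequenced fragments, was 0 in all 4 libraries of that line. The 9p21 genes were silent for 9 of 10 in PEO-4 (all but FOCAD), for 4 of 10 in SKOV-3 (CDKN2A, CDKN2B, CDKN2B-AS1 and ELAVL2) and for 0 of 10 in T1074. Among the 19897 genes with at least 0.1 CPM (counts scaled to library size) in T1074, 1.74% were silent in PEO-4 while 1.62% were in SKOV-3, and nothing about the members is read from this, since they were chosen on these contrasts.

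RNA depleted of rRNA was sequenced in 12 libraries, 4 per line, all of the genotype that the labels give as WT. PEO-4 is an ovarian cystadenocarcinoma line by its label, described in the study as high-grade serous carcinoma. SKOV-3 carries the label of an ovarian serous cystadenocarcinoma and is described in the study as a clear cell carcinoma line. T1074 is a line of ovarian epithelial cells immortalized with SV-40, a virus whose large T antigen is known to bind the RB protein. The study traces T1074 to normal ovarian surface epithelium. Each group is thus a single cell line grown in its own medium (RPMI 1640 for PEO-4, McCoy's 5A for SKOV-3 and Prigrow I for T1074), and line, tumour type and medium cannot be told apart. The labels and methods give 4 replicates of each line but not whether these were separate cultures, so that the p-values below measure only the spread between these libraries. Both cancer lines were set against the same 4 T1074 libraries.

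CDKN2A makes 2 unrelated proteins from one locus. Its p16INK4a first exon gives an inhibitor of the kinases CDK4 and CDK6, which keeps RB active and holds cells before DNA synthesis, and its p14ARF first exon gives a protein that binds and holds back the ubiquitin ligase MDM2. The neighbour CDKN2B encodes p15INK4b, a second CDK4/6 inhibitor, and the non-coding RNA CDKN2B-AS1 (ANRIL) runs antisense to both genes. MTAP, the enzyme of methionine salvage that splits methylthioadenosine, stands beside them, and this stretch is among those most often lost in human tumours.

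The sequences across the splice junctions show how the products of the locus are told apart. Each has 15 bases of the upstream exon in lower case and 15 bases of the downstream exon in capitals, 5′ to 3′, from the transcripts of GENCODE 44 on GRCh38.
p16INK4a, exon 1 to 2 of ENST00000304494.10: cggaggccgatccagGTCATGATGATGGGC
p14ARF, exon 1 to 2 of ENST00000579755.2: ttcctagaagaccagGTCATGATGATGGGC
p15INK4b, exon 1 to 2 of ENST00000276925.7: aggcgcgcgatccagGTCATGATGATGGGC
The 3 junctions end in the same 15 bases, and only the lower-case part separates them. For p16INK4a these were read from chr9:21974678-21974692 and chr9:21971194-21971208 on the minus strand, and for p14ARF the upstream part was at chr9:21994139-21994153. The p15INK4b junction joined chr9:22008798-22008812 to chr9:22006233-22006247. Among 252835 annotated transcripts the 30 bases of the p16INK4a junction occurred in 3, all of CDKN2A, those of p14ARF in 2 of CDKN2A and those of p15INK4b in 1 of CDKN2B.

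A second pair shows where MTAP and CDKN2B-AS1 can be joined into a single RNA, again with the downstream exon in capitals.
MTAP, exon 4 to 5 of ENST00000644715.2: tcagttcattgacagGACCACTATGAGACC
Readthrough, exon 4 to 5 of ENST00000404796.3: tcagttcattgacagGACTATTTGCCACGA
Both begin in exon 4 of MTAP at chr9:21818188-21818202. The MTAP transcript goes on at chr9:21837908-21837922 on the plus strand. The readthrough transcript, annotated as gene ENSG00000264545, goes on at chr9:22029433-22029447, which GENCODE 44 also gives as an exon of CDKN2B-AS1. The microRNA miR-31-5p is encoded at chr9:21512158-21512178 within the lncRNA gene MIR31HG, between IFNE and MTAP. Its mature sequence from RefSeq (GRCh38.p14) is shown, with the seed (bases 2 to 8) in capitals, because its host gene is one of the silent genes of PEO-4. No other of 2370 mature names in the RefSeq table has this seed, and the microRNA itself was not measured here.
hsa-miR-31-5p: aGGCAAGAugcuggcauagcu

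Totals of expected counts per library lay between 38690954 and 47148161 for PEO-4, between 47340136 and 55739060 for SKOV-3 and between 19780836 and 38583368 for T1074, whose replicate 1 was the lowest. A level of 3 counts per library, taken as the floor for a gene at 0, corresponds to a mean of 0.0724 CPM in PEO-4, 0.0605 CPM in SKOV-3 and 0.0918 CPM in T1074 (counts scaled to library size with TMM factors), and floors cover counting error only. Of 11 markers of ovarian and Mullerian epithelium, 11 reached 1 CPM in PEO-4, 9 in SKOV-3 and 6 in T1074, with summed levels of 3560 to 4836, 1055 to 1959 and 735 to 1980 CPM in that order of lines. In T1074 the listed markers EPCAM (0.0964 ± 0.0360 CPM) and PAX8 (0.0951 ± 0.0774 CPM) were near 0, and CDH1, MUC16 and CLDN3 stayed under 1 CPM. KRT7, KRT8, KRT18, KRT19, WT1 and CLDN4 reached 1 CPM there, with KRT8 and KRT18 at 616 and 328 CPM and WT1 at 22.6 CPM. The list mixes epithelial types, so low values in it do not show that T1074 is not epithelial. Of 4 mesothelial markers, 2, 2 and 3 reached 1 CPM in PEO-4, SKOV-3 and T1074, with sums of 413 to 550, 11.1 to 15.6 and 33.5 to 84.8 CPM. In T1074 these were CALB2 (19.8 CPM), LRRN4 (16.1 CPM) and MSLN (13.3 CPM). Of 8 markers of fibroblasts and stroma, 2 reached 1 CPM in PEO-4, 6 in SKOV-3 and 6 in T1074, with sums of 70.4 to 110.9, 992 to 2478 and 834 to 2447 CPM. The similar sums of SKOV-3 and T1074 came from different genes. In SKOV-3 the sum was mostly VIM (mean 1693 CPM), with COL1A1 at 18.4 and COL3A1 at 1.45 CPM. T1074 had VIM at 634, COL1A1 at 486 and COL3A1 at 394 CPM. The PEO-4 sum was mostly THY1 (81.7 CPM). Each group is a culture of a single line, so these markers describe the line and not a mixture of tissues. In bulk RNA, fewer cells with a marker and less of its RNA per cell cannot be told apart. The part of these markers in the results was not tested. Of 4 leukocyte markers, 0, 0 and 1 reached 1 CPM, and of 3 endothelial markers, 0, 1 and 0, in PEO-4, SKOV-3 and T1074.

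At the centre of the locus, CDKN2A (chr9:21967752-21995301, minus strand) had 0 counts in all 4 PEO-4 and all 4 SKOV-3 libraries. The T1074 libraries held 4176, 9517, 9153 and 14335 counts, or 209.5, 218.0, 224.2 and 356.5 CPM. Against the floor, PEO-4 lay at least 3482-fold and SKOV-3 at least 4170-fold below T1074 for CDKN2A, which had the highest TPM of the 10 genes in T1074 (161.9 ± 48.0, SD, n = 4), where TPM corrects for transcript length. Its antisense neighbour CDKN2B-AS1 (chr9:21994139-22128103, plus strand) was likewise at 0 in the 8 cancer libraries and at 23.2, 13.0, 16.1 and 21.3 CPM in T1074, a difference of at least 254-fold for PEO-4 and at least 304-fold for SKOV-3. CDKN2B (chr9:22002903-22009305, minus strand), the p15INK4b gene, was at 0 in the same 8 libraries and at 33.6, 25.2, 43.8 and 57.8 CPM in T1074, so that PEO-4 lay at least 554-fold and SKOV-3 at least 663-fold lower. T1074 replicate 4 held the most CDKN2A and CDKN2B, while CDKN2B-AS1 was highest in replicate 1. The library kit kept the strand, but the strand setting of the counting is not given in the sources used here, so reads of CDKN2B-AS1 and of the genes it overlaps may not be fully told apart in T1074. In the cancer lines all 3 were at 0.

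**Figure D1:**
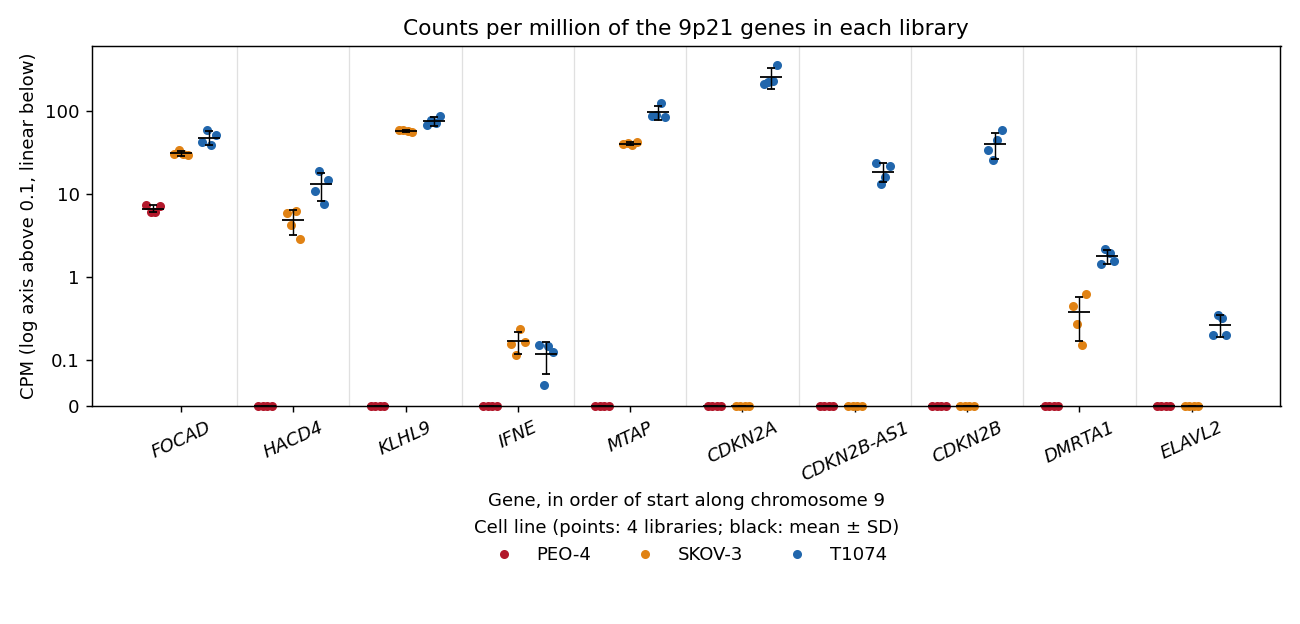
CPM (log axis above 0.1, linear below) of the 10 genes in the order of their starts along chromosome 9, with the 4 libraries of PEO-4, SKOV-3 and T1074 as points and the mean ± SD in black. PEO-4 lies at 0 from HACD4 to ELAVL2 and SKOV-3 only at CDKN2A, CDKN2B-AS1, CDKN2B and ELAVL2, while all T1074 points are above 0.

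In T1074 most of the CDKN2A signal came from p16INK4a. The 14 annotated transcripts were grouped by where they start. The 4 that start at the p16INK4a first exon summed to 85.2, 102.8, 74.2 and 113.7 TPM, which was 63.5%, 56.3%, 66.3% and 51.9% of the gene (59.5 ± 6.56%, SD, n = 4). The 5 that start at the p14ARF first exon summed to 39.7, 68.1, 31.1 and 78.4 TPM (32.6 ± 4.66%), and the 5 that start downstream of both first exons to 9.34, 11.6, 6.68 and 26.8 TPM (7.88 ± 2.95%). The p16INK4a share was thus the largest in 4 of 4 libraries. The transcript of highest level was the canonical p16INK4a form ENST00000304494.10 (chr9:21967752-21974857, 3 exons) at 85.6 ± 16.5 TPM. The main p14ARF forms, ENST00000579755.2 and ENST00000530628.2, had 36.3 ± 16.3 and 16.7 ± 5.87 TPM. ENST00000578845.2, which has neither first exon, had 13.3 ± 9.06 TPM, and ENST00000579122.1, a p16INK4a form, 6.37 ± 2.91 TPM. These transcripts overlap downstream of the first exons, so that RSEM divided the reads there by estimate, and no read of either first exon was assigned in PEO-4 or SKOV-3. Of the 3 CDKN2B transcripts, the canonical 2-exon ENST00000276925.7 held 55.4% of the TPM in T1074 (3.83 ± 0.773). Of the 28 annotated CDKN2B-AS1 transcripts, 1 reached 0.5 TPM, ENST00000651588.1 at 0.553 ± 0.125 TPM.

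**Figure D2:**
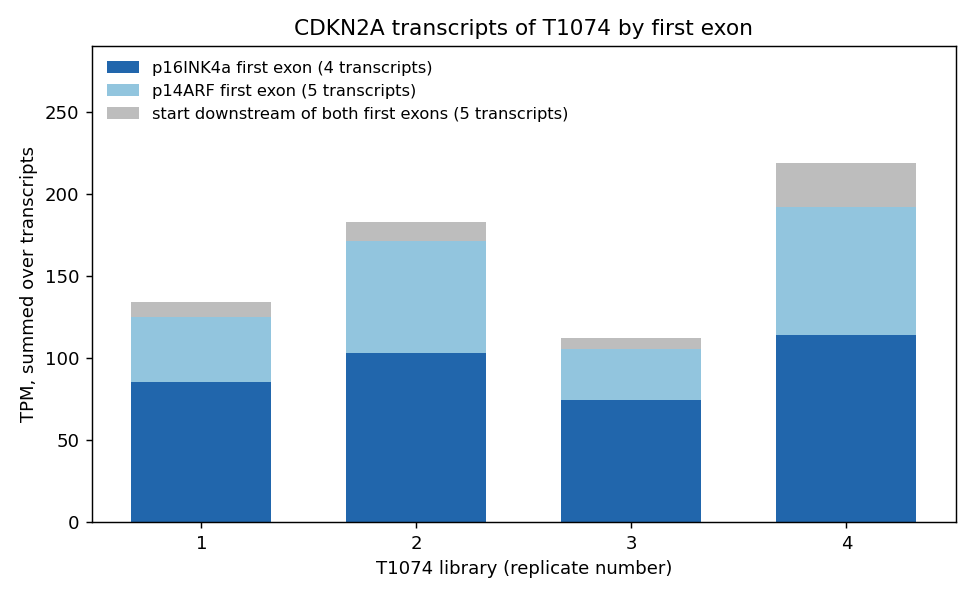
TPM of CDKN2A in the 4 T1074 libraries, stacked by where the transcripts start: at the p16INK4a first exon (4 transcripts, dark blue), at the p14ARF first exon (5, light blue) or downstream of both (5, grey). The p16INK4a part is the largest in each library, 74.2 to 113.7 TPM; PEO-4 and SKOV-3 are not drawn, since all 14 transcripts were at 0 there.

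On the telomeric side of CDKN2A the cancer lines differed. MTAP (chr9:21802636-21937651, plus strand) had 0 counts in PEO-4, 39.3, 40.5, 38.3 and 41.5 CPM in SKOV-3 and 85.0, 88.1, 122.1 and 84.0 CPM in T1074. PEO-4 was at least 1310-fold below T1074 and at least 551-fold below SKOV-3, and SKOV-3 held 0.421 of the T1074 mean (log2 fold change -1.25, SE 0.13), without overlap between these 2 lines. KLHL9 (chr9:21329665-21335404, minus strand), an intronless gene for a substrate adaptor of the CUL3 ubiquitin ligase, was at 0 in PEO-4. Its SKOV-3 libraries had 59.1, 58.5, 56.4 and 55.3 CPM and its T1074 libraries 66.3, 76.4, 70.0 and 87.1 CPM. It had the smallest distance between SKOV-3 and T1074 of the members that passed the filter on low counts (log2 fold change -0.39, SE 0.11). HACD4 (chr9:20999509-21031640, minus strand), a dehydratase of very long chain fatty acid elongation, was at 0 in PEO-4. The SKOV-3 libraries had 5.79, 4.15, 6.19 and 2.87 CPM and those of T1074 10.8, 18.95, 7.57 and 14.5 CPM (SKOV-3 against T1074 -1.45, SE 0.31). PEO-4 was at least 1035-fold lower than T1074 for KLHL9 and at least 179-fold lower for HACD4. These genes therefore showed the same order, with PEO-4 at 0, SKOV-3 intermediate and T1074 highest. IFNE (chr9:21480839-21482313, minus strand), the interferon epsilon gene that is known to be active in the reproductive tract, was low wherever it was seen, with 0 counts in PEO-4, between 6 and 11 per library in SKOV-3 and between 2 and 6 in T1074, and the SKOV-3 and T1074 libraries overlapped. Its span lies within that of MIR31HG.

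FOCAD (chr9:20658309-20995955, plus strand), whose product binds the SKI complex of RNA decay, was the only member with counts in PEO-4. Its level was 7.26, 6.01, 6.04 and 7.09 CPM in PEO-4, 29.6, 33.7, 29.6 and 29.5 CPM in SKOV-3 and 41.6, 58.3, 38.3 and 50.6 CPM in T1074, with no overlap among the lines. The log2 fold change was -2.84 (SE 0.14) for PEO-4 against T1074, -0.63 (SE 0.13) for SKOV-3 against T1074 and -2.21 (SE 0.14) for PEO-4 against SKOV-3. Within FOCAD the canonical ENST00000338382.11 (44 exons) carried 203 to 273 counts per PEO-4 library. The longer ENST00000380249.5, which starts at the first base of the gene, had 0 counts in all PEO-4 libraries, between 16.2 and 126 in SKOV-3 and between 143 and 477 in T1074. A short internal transcript, ENST00000605852.1 (chr9:20872807-20907202), was assigned 14.7, 14.5, 2.88 and 10.97 counts in PEO-4 and 0 in the other 8 libraries. The read coverage along the gene was not used here, and whether the FOCAD signal of PEO-4 spans the whole gene was not tested.

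On the other side, DMRTA1 (chr9:22446824-22455740, plus strand), a transcription factor gene of the doublesex and mab-3 family, was at 0 in PEO-4. SKOV-3 had 0.448, 0.269, 0.150 and 0.615 CPM, against 1.41, 2.18, 1.91 and 1.54 CPM in T1074. SKOV-3 was lower than T1074 in each library (log2 fold change -2.25, SE 0.38), from 7 to 30 counts per library, and PEO-4 was at least 24.3-fold lower than T1074. ELAVL2 (chr9:23690104-23826337, minus strand), which encodes an RNA-binding protein known from neurons and germ cells, was at 0 in both cancer lines and held only 4 to 15 counts per library in T1074. The floor puts PEO-4 at least 3.67-fold and SKOV-3 at least 4.39-fold below T1074. ELAVL2 below that floor was not detectable at this depth.

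On the TPM scale, which allows levels to be compared between genes, the order in T1074 ran from CDKN2A down to MTAP (14.2 ± 2.17), CDKN2B (6.90 ± 2.13), KLHL9 (6.29 ± 1.67), FOCAD (4.69 ± 2.09), CDKN2B-AS1 (3.60 ± 0.748), HACD4 (0.80 ± 0.453), DMRTA1 (0.155 ± 0.0635), ELAVL2 (0.0525 ± 0.0222) and IFNE (0.0375 ± 0.0126). From CDKN2B to CDKN2B-AS1 neighbours differed by less than the larger of their SDs, as did ELAVL2 and IFNE. In SKOV-3 the TPM order was MTAP (4.38 ± 0.420), KLHL9 (3.26 ± 0.356), FOCAD (1.95 ± 0.178), HACD4 (0.193 ± 0.0793), IFNE (0.0450 ± 0.0173) and DMRTA1 (0.02 ± 0.00817). FOCAD was at 1.05 ± 0.144 TPM in PEO-4.

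Of the 10 members, 8 passed the filter on low counts (IFNE and ELAVL2 did not). The libraries of PEO-4 lay below those of T1074 without overlap for 10 of 10 members, and those of SKOV-3 for 9 of 10, where 33.4% and 29.8% of all 19898 tested genes did so (33.2% and 30.5% lay above). Of the 19620 genes with at least 0.1 CPM in SKOV-3, 2.02% were silent in PEO-4, among them 5 of the members. Nothing about the members is read from these shares either.

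The borders of the silence were sought in the annotated genes of chromosome 9 that start between 18 and 29 Mb. Of these 151 genes, 91 had a count in some library and 44 had a mean of at least 0.1 CPM in a line, of which PEO-4 lacked 21, SKOV-3 lacked 7 and T1074 lacked 0. In PEO-4 the silence began with HACD4, 3.55 kb after the end of FOCAD. The first 5 genes (HACD4, IFNB1, KLHL9, MIR31HG and IFNE) were followed by RN7SL151P, a 7SL RNA pseudogene with 5, 10, 1 and 1 counts in PEO-4, whose reads cannot be told apart with certainty from the many near-identical 7SL genes. The next 15 genes, MTAP to ELAVL2, were again all silent, and TUSC1, which starts at position 25676969, was the next gene with counts (16.2 ± 1.36 CPM). The remaining silent gene of PEO-4 was ENSG00000260412, a lncRNA at 27937617 outside this stretch, with 4 to 7 counts per library in SKOV-3 and 1 or 2 in T1074. Over all 65 annotated genes between HACD4 and ELAVL2, the summed level was 0.108 ± 0.107 CPM in PEO-4 (1 gene with a count, RN7SL151P), 123.9 ± 4.42 CPM in SKOV-3 (27 genes) and 506 ± 89.6 CPM in T1074 (36 genes). Towards the centromere the end of the PEO-4 stretch is less certain. ELAVL2, with few counts in T1074, was also at 0 in SKOV-3, whereas LINC01239, whose span reaches furthest towards ELAVL2 among the genes before it of at least 0.1 CPM in a line, had 3 to 7 counts per library in SKOV-3 and 4 to 30 in T1074. From the end of LINC01239 to TUSC1 is 2.85 Mb, in which only ELAVL2 reached 0.1 CPM in a line.

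In SKOV-3 the silent stretch was shorter. It ran over 6 genes from CDKN2A-DT to UBA52P6, within chr9:21966929-22128103 or 161 kb. On the side of MTAP the nearest gene of at least 0.1 CPM in a line, other than MTAP itself and the readthrough gene ENSG00000264545, was ENSG00000279670, which ends at 21893857 (2 to 6 counts per SKOV-3 library), and MTAP ends at 21937651. The readthrough gene starts with MTAP and spans to 22029594, across part of the stretch, and its SKOV-3 counts are given with the MTAP transcripts. On the other side DMRTA1 starts at 22446824, and a single count in replicate 4 fell on ENSG00000236921 at 22203990. All 8 annotated genes from CDKN2A-DT to CDKN2B-AS1 were at 0 in SKOV-3 and in PEO-4, against 7 with counts and a summed level of 312 ± 84.2 CPM in T1074. Of the 44 genes of at least 0.1 CPM in a line, ELAVL2 was the only one silent in SKOV-3 apart from this stretch.

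**Figure D3:**
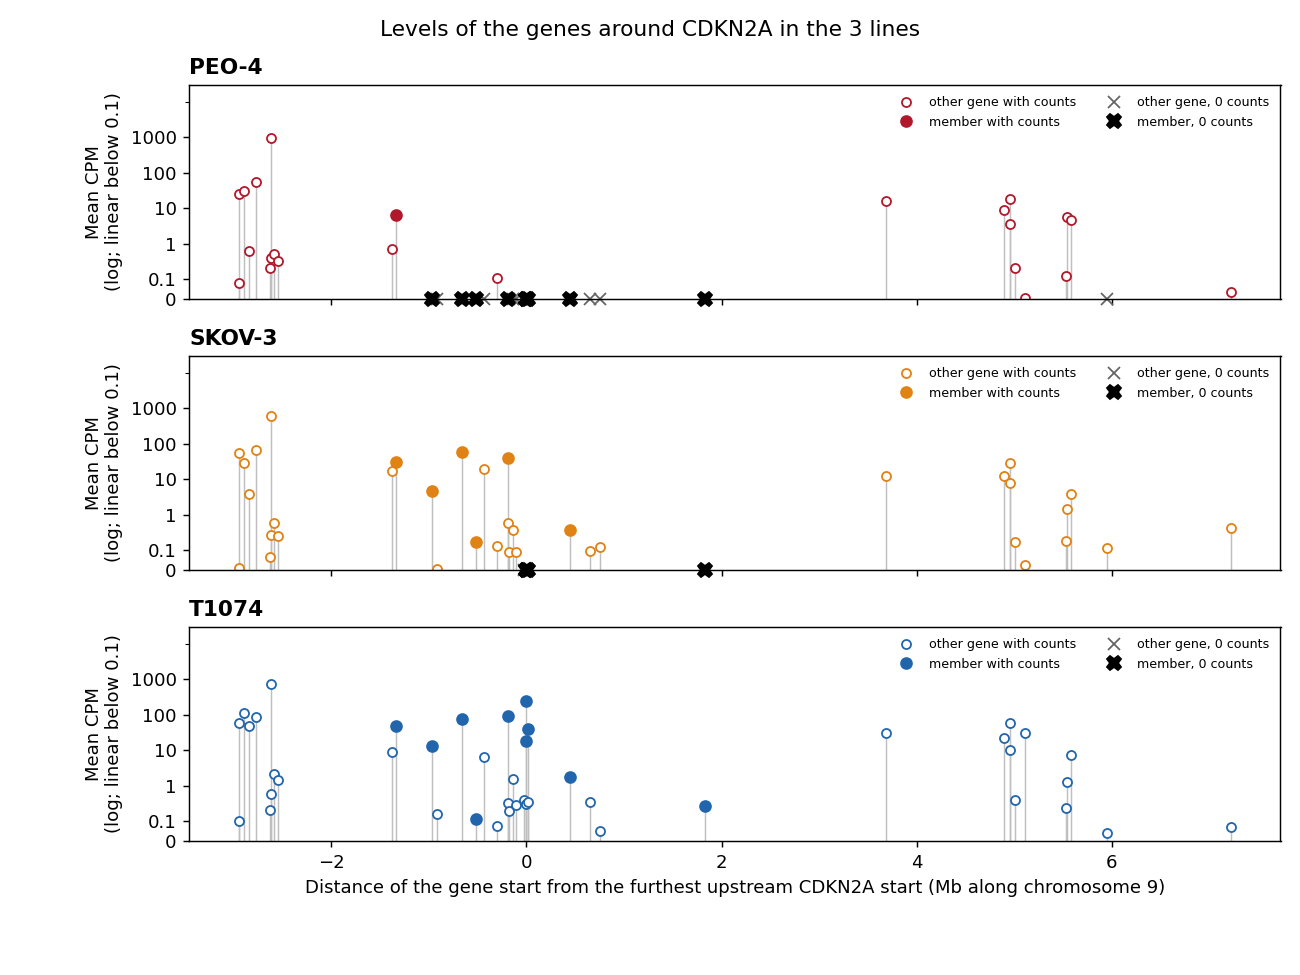
Mean CPM (log axis, linear below 0.1) of the 44 genes of chromosome 9 between 18 and 29 Mb that reached 0.1 CPM in a line, by the distance of their start from the furthest upstream CDKN2A start in Mb, for PEO-4, SKOV-3 and T1074 from top to bottom. Filled circles are members, open circles other genes, and crosses genes at 0 in all 4 libraries: 21 in PEO-4, 7 in SKOV-3 and 0 in T1074.

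Transcripts of MTAP bore on the position of the SKOV-3 border. Of 13 annotated transcripts, 6 reached 0.5 TPM in a line, and all were at 0 in PEO-4. The one that extends furthest towards CDKN2A, ENST00000580900.5 (to 21937651), was present in SKOV-3 at 0.468 ± 0.0634 TPM (10.7% of the gene) and in T1074 at 1.08 ± 0.256 TPM (7.65%). MTAP transcripts overlap and RSEM divided their shared reads by estimate, so whether reads reached the far end of this one was not tested. The canonical ENST00000644715.2 (to 21867081) had 0.818 ± 0.0665 TPM in SKOV-3 (18.7%) and 3.53 ± 0.867 TPM in T1074 (24.9%). ENST00000419385.5, annotated for nonsense-mediated decay, had the highest level in T1074 (4.46 ± 0.410 TPM), and ENST00000460874.6 in SKOV-3 (1.24 ± 0.187 TPM). The readthrough transcript ENST00000404796.3, whose last exon lies beyond CDKN2A, was assigned 0 counts in PEO-4, 27.2, 65.6, 20.5 and 5.64 in SKOV-3 and 8.99, 0, 35.4 and 0 in T1074. It shares its first 4 exons with MTAP, among which RSEM divides reads by estimate, so these counts do not place RNA beyond the border. Its last exon is also one of CDKN2B-AS1, which was at 0 in SKOV-3.

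**Figure D4:**
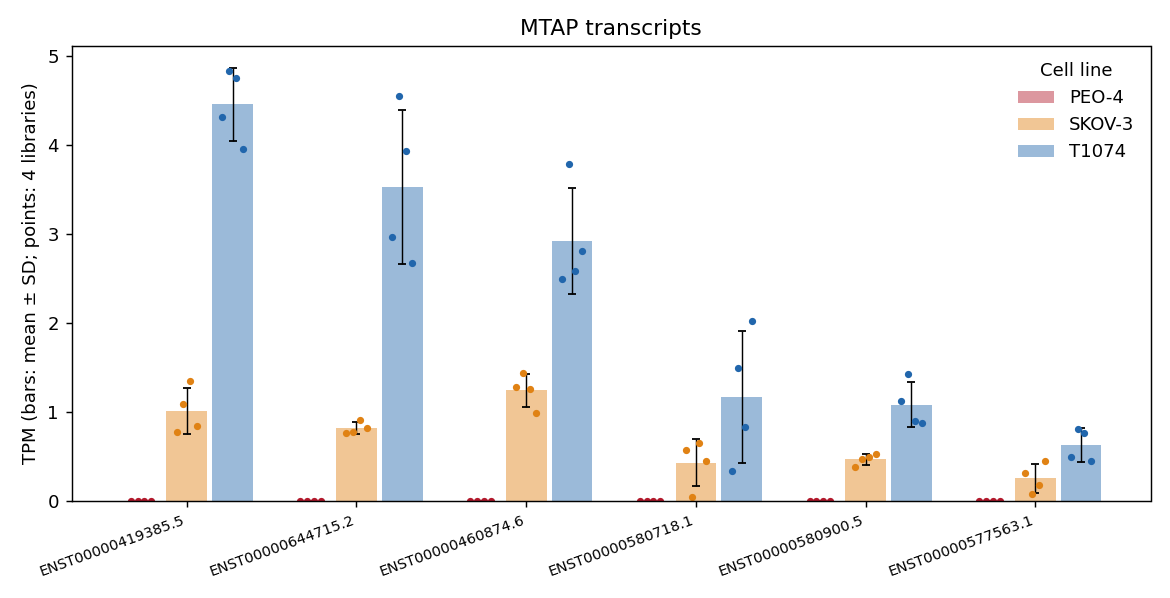
TPM of the 6 MTAP transcripts that reached 0.5 TPM in a line, with bars for the mean ± SD and points for the 4 libraries of PEO-4, SKOV-3 and T1074. PEO-4 is at 0 throughout, and the SKOV-3 mean lies below the T1074 mean for each transcript, as for the canonical ENST00000644715.2 at 0.818 and 3.53 TPM.

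The whole genome was searched for like stretches among the 13790 genes with at least 1 CPM in T1074, taken in chromosomal order. Of these, 77 (0.558%) were silent in PEO-4, and for SKOV-3 the number was 72 (0.522%). The silent genes of PEO-4 formed 60 runs, of which 8 held 2 or more genes. The longest, with 9 genes, ran from HACD4 to DMRTA1, ahead of a run of 4 genes in the HOXD cluster of chromosome 2. In SKOV-3 there were 64 runs, 7 with 2 or more genes, and the longest held CDKN2A, CDKN2B-AS1 and CDKN2B. These lengths are descriptive, because the members had been picked for their silence.

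Outside the stretch from HACD4 to ELAVL2 the tested genes of the window were not silent, but most were lower in the cancer lines. The quasi-likelihood F-test of edgeR with Benjamini-Hochberg adjustment over all 19898 genes was used for genes outside the member list; it called 74.1% of all genes for PEO-4 against T1074 (36.3% higher and 37.8% lower), 67.8% for SKOV-3 against T1074 (33.3% higher and 34.5% lower) and 75.2% for PEO-4 against SKOV-3 (38.5% higher and 36.7% lower). Of the 24 tested non-members between 18 and 29 Mb, 6 lie between HACD4 and ELAVL2, all at 0 in PEO-4 and 3 of them at 0 in SKOV-3, and nothing is read from their direction. Of the 18 outside the stretch, 1 was higher and 13 were lower in PEO-4 (median log2 fold change -1.28), and 2 were higher and 13 lower in SKOV-3 (median -1.0), where the medians of all genes were -0.01 and -0.03. With the 6 genes of the stretch the medians were -1.80 in PEO-4 and -1.08 in SKOV-3. From the end of the arm to 18 Mb the medians over 60 genes were -0.46 in PEO-4 and -0.61 in SKOV-3, and the PEO-4 value was -0.20 without PEO-4 replicate 2 and -0.96 with a CPM of at least 1 in 4 libraries. From 29 to 39 Mb they were -0.24 and -0.11 over 108 genes. In PEO-4 this was only -0.12 to -0.09 when any of its own libraries was left out, and in SKOV-3 -0.12 to -0.03 without single libraries. Leaving out a PEO-4 library also moved the PEO-4 median of all genes, from -0.01 to between 0.07 and 0.09. Without PEO-4 replicate 2 it was 0.09, a smaller move than that of the arm's end, and the cause of these shifts was not tested. On the long arm, over 534 genes, the medians were -0.73 in PEO-4 and -0.02 in SKOV-3. For PEO-4 against SKOV-3 the medians were -0.47 from the end of the arm to 18 Mb and -0.68 on the long arm, with 0.05 over all genes. DNA copy number was not measured in these libraries.

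Within the stretch, the non-member MIR31HG, the host of miR-31, set the cancer lines apart. It was at 0 in PEO-4, at 22.0, 20.4, 18.4 and 17.99 CPM in SKOV-3, with T1074 at 5.57, 5.29, 7.84 and 7.81 CPM. It was at least 91.5-fold lower in PEO-4 than in T1074, and higher in SKOV-3 than in T1074 without overlap (log2 fold change 1.57, SE 0.17). ENSG00000265194, a lncRNA inside MTAP, was at 0 in PEO-4, at 0.381 ± 0.152 CPM in SKOV-3, against 1.51 ± 0.602 CPM in T1074 (SKOV-3 log2 fold change -1.97). No p is given for either gene, since the stretch around the members was chosen with its levels known. On the telomeric flank, MLLT3, a subunit of the super elongation complex before FOCAD, fell in PEO-4 (0.695 ± 0.0748 CPM) and rose in SKOV-3 (16.8 ± 1.54 CPM) against T1074 (9.01 ± 2.29 CPM), with edgeR adjusted p of 9.74e-10 and 2.98e-04. PLIN2, which coats lipid droplets, had 0.618 ± 0.0985 CPM in PEO-4 and 3.87 ± 0.342 CPM in SKOV-3, against 47.4 ± 2.58 CPM in T1074 (log2 fold change -6.25 and -3.61 in these lines, edgeR adjusted p = 3.14e-13 and 1.01e-11).

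Past the silent stretch, TEK, the angiopoietin receptor, had the largest difference of the flank. It was at 0.00732 ± 0.0146 CPM in PEO-4 and 0.0251 ± 0.0304 CPM in SKOV-3, with 3 or fewer counts per library, and at 16.4, 34.5, 39.7 and 32.5 CPM in T1074 (edgeR adjusted p = 2.13e-10 for PEO-4 and 2.97e-10 for SKOV-3). TUSC1, the first expressed gene beyond ELAVL2, had 16.2 ± 1.36 CPM in PEO-4, 12.7 ± 1.19 CPM in SKOV-3 and 30.3 ± 5.85 CPM in T1074, with log2 fold changes of -0.90 and -1.26 (edgeR adjusted p = 3.23e-05 and 1.61e-06). CAAP1, PLAA, HAUS6, DENND4C, ACER2 and ENSG00000260912 also fell in both cancer lines, by 0.60 (DENND4C) to 2.18 (ENSG00000260912) on the log2 scale in PEO-4 and by 0.35 (DENND4C) to 2.51 (ENSG00000260912) in SKOV-3. RRAGA, a Rag GTPase of the mTORC1 pathway, fell in PEO-4 (log2 fold change -1.22, edgeR adjusted p = 1.20e-07) and did not pass in SKOV-3. MOB3B was the single tested non-member of the window that rose in PEO-4, at 5.80 ± 1.503 CPM against 1.25 ± 0.494 CPM in T1074 (log2 fold change 2.18, edgeR adjusted p = 4.17e-06). IFT74 and C9orf72 were lower in both lines (log2 fold change -1.54 and -0.67 in PEO-4, -0.46 and -0.95 in SKOV-3), but IFT74 in SKOV-3 (edgeR adjusted p = 0.0367) overlapped T1074 and lost its call in 17 of 22 alternatives, and C9orf72 in PEO-4 overlapped T1074 and lost its call in 4 of 22. RPS6, a ribosomal protein gene of the window, did not pass in either line.

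The interferon genes of the cluster were close to absent. Of 17 type I interferon genes on 9p, 1 had a count in PEO-4 (IFNK, which lies outside the silent stretch), 8 in SKOV-3 and 8 in T1074, and their counts per library summed to between 0 and 2 for PEO-4, between 10 and 16 for SKOV-3 and between 5 and 28 for T1074. The sums of PEO-4 lay below those of the other lines, which overlapped, and rested on very few counts per gene.

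The pathways of the members were described by gene lists chosen with earlier results of these data known, so a count for a list is no independent support. Each list count below stands beside the share of all 19898 tested genes. Against T1074 that share was 74.1% called in PEO-4 (36.3% higher and 37.8% lower). In SKOV-3 it was 67.8% (33.3% higher and 34.5% lower). Nothing about a list is read from a count near these shares. In the list of CDK4/6, cyclin D and RB genes, on which p16INK4a and p15INK4b act, 5 genes were higher, 15 lower and 3 not past the test in PEO-4 (median log2 fold change -1.11), and 5 were higher, 14 lower and 4 not past in SKOV-3 (median -0.91). CCND1, the cyclin D1 partner of CDK4 and CDK6, was at 445, 472, 442 and 451 CPM in PEO-4 and at 403, 420, 363 and 379 CPM in SKOV-3, against 52.4, 16.3, 68.9 and 44.6 CPM in T1074. Its log2 fold change was 3.31 (SE 0.31, edgeR adjusted p = 2.30e-07) in PEO-4 and 3.10 (SE 0.31, adjusted p = 5.75e-07) in SKOV-3. Every cancer library lay above every T1074 library for this gene.

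RB1, whose protein CDK4 and CDK6 phosphorylate, differed between the cancer lines. It was at 16.3, 18.2, 19.8 and 18.1 CPM in PEO-4, at 156, 156, 162 and 138 CPM in SKOV-3, with T1074 at 115, 131, 121 and 146 CPM. PEO-4 was lower than T1074 (log2 fold change -2.82, SE 0.11, edgeR adjusted p = 3.01e-11), while the SKOV-3 value of 0.26 (SE 0.10, adjusted p = 0.0360) overlapped T1074 and lost the call in 10 of 22 alternatives. CDK6 rose in PEO-4 (232 ± 51.0 CPM against 65.5 ± 14.3 CPM in T1074, log2 fold change 1.82, edgeR adjusted p = 3.54e-07) and did not pass in SKOV-3 (82.2 ± 8.73 CPM), and CDK4 fell in both (126 ± 4.87 CPM in PEO-4 and 120 ± 6.40 CPM in SKOV-3 against 263 ± 18.7 CPM in T1074). CDKN2C, the p18INK4c gene and a paralog of CDKN2A outside 9p, fell to 13.1 ± 3.08 CPM in PEO-4 and 22.3 ± 3.47 CPM in SKOV-3, against 54.0 ± 17.3 CPM in T1074. CCNE1 and E2F5 rose in both lines, by 1.51 and 2.80 on the log2 scale in PEO-4 and by 2.94 and 3.05 in SKOV-3. RBL1 and E2F1 fell in both, to 8.91 and 13.1 CPM in PEO-4 and 25.4 and 35.3 CPM in SKOV-3, against 102 and 144 CPM in T1074.

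In the list of the ARF and MDM2 pathway and its target genes, 8 genes were higher, 12 lower and 5 not past the test in PEO-4 (median log2 fold change -0.32), and 9 were higher, 14 lower and 2 not past in SKOV-3 (median -0.58). CDKN1A, which encodes the CDK inhibitor p21, fell in both lines, to 8.11 ± 4.88 CPM in PEO-4 and 19.5 ± 2.33 CPM in SKOV-3, against 122 ± 57.2 CPM in T1074 (log2 fold change -3.90 and -2.64, edgeR adjusted p = 5.42e-07 and 1.96e-05). MDM2, the ligase that p14ARF holds back, was lower in both lines (-0.76 in PEO-4 and -0.75 in SKOV-3 on the log2 scale). AEN also fell in both (-1.51 and -2.38), and DDB2 fell in SKOV-3 (-2.41). GDF15 and BTG2 went in opposite directions in the cancer lines. GDF15 had log2 fold changes of -3.11 in PEO-4 and 1.24 in SKOV-3, and BTG2 of 2.24 and -2.87.

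**Figure D5:**
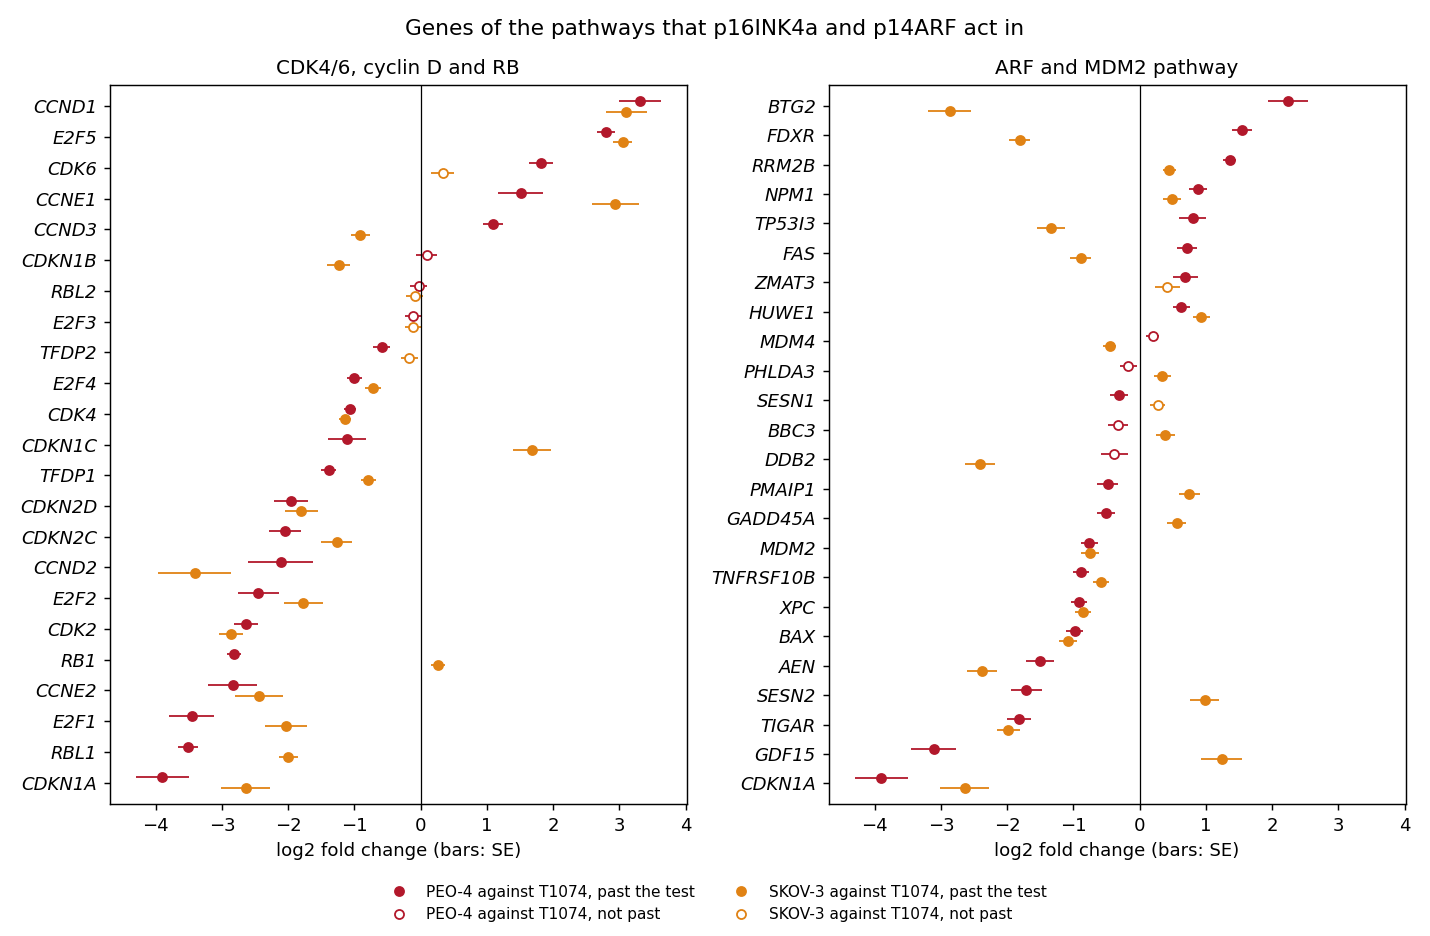
log2 fold change against T1074 (bars: SE) of the 23 tested genes of the CDK4/6, cyclin D and RB list and of 24 genes of the ARF and MDM2 list, with PEO-4 in red and SKOV-3 in orange; filled points passed the edgeR test at an adjusted p of 0.05. CCND1 and E2F5 stand to the right in both lines, CDKN1A and RBL1 to the left, and RB1, GDF15 and BTG2 part the lines.

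For MTAP, whose loss is known to raise methylthioadenosine, an inhibitor of PRMT5, the list of methionine salvage, polyamine and PRMT5 genes held 8 higher, 7 lower and 5 not past the test in PEO-4 (median 0.15), and 5 higher, 6 lower and 9 not past in SKOV-3 (median 0.00). PRMT5, the arginine methyltransferase, was at 60.2 ± 1.97 CPM in PEO-4, 43.99 ± 3.09 CPM in SKOV-3 and 48.9 ± 8.77 CPM in T1074, with a PEO-4 log2 fold change of 0.30 (edgeR adjusted p = 0.0302) that was lost in 6 of 22 alternatives, and no call in SKOV-3 (adjusted p = 0.248). MAT2A, which makes S-adenosylmethionine, was at 438, 420, 483 and 428 CPM in PEO-4, at 183, 182, 201 and 178 CPM in SKOV-3, with T1074 at 905, 954, 939 and 267 CPM. It fell in SKOV-3 (log2 fold change -2.04, edgeR adjusted p = 2.11e-05). The PEO-4 value of -0.79 (adjusted p = 0.0196) overlapped T1074 through its replicate 4 and lost its call in 11 of 22 alternatives. AZIN1 and CLNS1A, an antizyme inhibitor and a PRMT5 partner, rose in both lines, by 1.85 and 1.44 on the log2 scale in PEO-4 and by 1.06 and 0.42 in SKOV-3. SMOX, the spermine oxidase, fell in PEO-4 (-2.03) and rose in SKOV-3 (0.76), and OAZ1 and ENOPH1 fell in PEO-4 (-1.13 and -1.05).

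Polycomb proteins and the demethylase KDM6B are known regulators of the INK4-ARF locus. Of 16 listed genes, 3 were higher, 8 lower and 5 not past the test in PEO-4 (median -0.29), and 5 were higher, 8 lower and 3 not past in SKOV-3 (median -0.27). EZH2, the H3K27 methyltransferase, fell in both lines, to 17.0 ± 2.74 CPM in PEO-4 and 12.7 ± 1.72 CPM in SKOV-3, against 29.6 ± 3.995 CPM in T1074 (edgeR adjusted p = 1.83e-04 and 4.27e-06). CBX7, a Polycomb reader that is known to bind CDKN2B-AS1, fell in both (-1.37 and -1.09), SUZ12 fell in PEO-4 (-1.49) and KDM6B in SKOV-3 (-1.71). CBX8 rose in PEO-4 (1.75), and its SKOV-3 value of 0.40 lost the call in 4 of 22 alternatives, with a change of sign in 1 more.

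For the partners of the flanking members the changes were mixed. Of the 8 CUL3 and KLHL9 partners, 2 were higher and 6 lower in PEO-4 (median -0.94), and 3 were higher, 3 lower and 2 not past in SKOV-3 (median -0.02). KLHL13, which works with KLHL9, was at 3.08, 3.09, 2.41 and 3.27 CPM in PEO-4 and at 36.5, 37.5, 34.5 and 36.1 CPM in SKOV-3, against 0.1003, 0.367, 0.220 and 0.572 CPM in T1074 (log2 fold change 3.11 and 6.72, edgeR adjusted p = 7.01e-08 and 4.12e-11). AURKB, the mitotic kinase that this ligase ubiquitinates, fell in both lines (-3.27 and -3.45), as did CDCA8 (-1.46 in each). BIRC5 was lower (-0.71 in PEO-4, lost in 7 of 22 alternatives, and -1.69 in SKOV-3), INCENP fell in PEO-4 (-1.40), and CUL3 itself rose (0.39 and 1.19).

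Of the 4 SKI complex genes listed for FOCAD, 1 was higher, 2 lower and 1 not past in PEO-4 (median -0.42), and 2 were higher, 1 lower and 1 not past in SKOV-3 (median 0.28). SKIC3 fell in both (-1.01 and -0.43), SKIC2 rose in PEO-4 (0.72) and in SKOV-3 (0.32, lost in 4 of 22 alternatives), HBS1L fell in PEO-4 (-0.97) and SKIC8 rose in SKOV-3 (0.48). Of 12 fatty acid elongation genes beside HACD4, 7 were higher and 5 lower in PEO-4 (median 0.55), and 5 were higher, 4 lower and 3 not past in SKOV-3 (median 0.20). ELOVL2, an elongase of polyunsaturated fatty acids, was at 0.8998 ± 0.107 CPM in PEO-4 and 1.06 ± 0.312 CPM in SKOV-3, against 40.9 ± 7.87 CPM in T1074. HACD2, a paralog of HACD4, rose to 151 ± 15.3 CPM in PEO-4 and 220 ± 30.9 CPM in SKOV-3, against 62.8 ± 13.3 CPM in T1074, and HACD1 fell in PEO-4 (-3.37). ELOVL4 and ELOVL7 rose in both lines (0.66 and 1.14 in PEO-4, 1.74 and 2.81 in SKOV-3), while ELOVL3 was higher in PEO-4 (1.44) and lower in SKOV-3 (-3.27).

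Of the 7 type I interferon receptor and signalling genes, 0 were higher, 5 lower and 2 not past in PEO-4 (median -0.81), and 1 was higher, 5 lower and 1 not past in SKOV-3 (median -1.22). STAT2 fell in both lines (-1.66 and -2.39), as did IFNAR1 (-0.60 and -0.89) and TYK2 (-0.81 and -1.22), while JAK1 rose in SKOV-3 (1.52) and IRF9 fell there (-2.22). Of the paralogs of DMRTA1 and ELAVL2, 3 of 7 passed the filter on low counts, of which 0 passed the edgeR test in PEO-4 and 2 were higher in SKOV-3. DMRT3, on 9p far from the members, was at 0.0396 ± 0.0358 CPM in PEO-4, 5.79 ± 0.607 CPM in SKOV-3 and 0.0520 ± 0.0883 CPM in T1074.

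Among 12236 protein-coding genes ranked over the 12 libraries by Pearson correlation, those closest to CDKN2A were PIEZO2 (0.9996), TMEM132D (0.9991), HOXA4 (0.9986), RHOJ (0.9984) and TCF21 (0.9982), and those closest to MTAP were CDH13 (0.9993), TACC1 (0.9983), RBFOX2 (0.9983), FAM50B (0.9980) and DENND5A (0.9980). The points are 12 libraries in 3 clusters, 1 per line, so these values mostly restate the differences between the lines.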

How the data were processed

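RNA of 4 replicates per line was depleted of rRNA and made into directional, paired-end libraries. The authors trimmed reads with Trimmomatic 0.39, aligned them with STAR 2.7.3a to hg38 and quantified transcripts with RSEM 1.3.1. The authors deposited an expected count per transcript, the estimated number of fragments, which is not whole where reads fit several transcripts. The TPM that the authors deposited is length-corrected and sums to a fixed total per library. Expected counts were then summed by gene and rounded before testing. GENCODE 44 held 61369 of the 61533 gene IDs and gave symbols and GRCh38 coordinates. Levels are CPM with TMM factors (mean ± SD, n = 4).

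Genes were tested with edgeR 4.0.16 (quasi-likelihood F-test, 1 fit of 12 libraries, filterByExpr by line, 19898 genes, Benjamini-Hochberg adjusted p threshold of 0.05) in R 4.3.3. Log2 fold changes are those of the edgeR fit, with SE from the F statistic. A prior count of 2 was used only for log2 CPM, as in the correlations. Genes at 0 are set against a floor of 3 counts per library. The members and gene lists were chosen with earlier results of these data known. Named genes are the 10 members, genes of the window of at least 1 CPM in a line, member transcripts of at least 0.5 TPM in a line, up to 6 genes per list with the largest change past the test and no overlap, fixed pathway genes, and the 5 genes most like CDKN2A and MTAP. Replicates differed beyond sampling noise. The fit was tested on simulated data. Some genes that the rule would name are not reported here. DESeq2 1.42.0, other scalings and filters, a replicate block and leaving out each library were alternatives. The labels give the molecule as protein, but the values and the study's methods describe RNA-seq.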

Additional observations from a re-analysis of the deposited data

Results flagged for a closer look

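In 210 groups of 4 libraries of the named genes, 13 had 1 library far from the other 3, with a gap above Dixon's 95% critical value, and chance gives about 1 in 20 such groups. Among the members, CDKN2A stood at 356.5 CPM in T1074 replicate 4, against 209.5 to 224.2 CPM in the other T1074 libraries, and MTAP at 122.1 CPM in T1074 replicate 3, against 84.0 to 88.1 CPM. FOCAD was at 33.7 CPM in SKOV-3 replicate 2, with the others at 29.5 to 29.6 CPM. None of these changes which members were silent.

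Of the pathway genes in T1074, replicate 3 stood above the others for GDF15 (135.5 CPM, others 41.3 to 55.3), AEN (84.6, others 40.1 to 47.0) and PRMT5 (62.0, others 43.4 to 45.3). In T1074 replicate 4, MAT2A was at 267.4 CPM, with the others at 905 to 954 CPM. DMRT3 was at 0.183 CPM in T1074 replicate 2, with the others at 0 to 0.0249 CPM.

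In PEO-4, replicate 3 was low for SMOX (5.42 CPM, others 5.83 to 5.88), replicate 2 was high for PLAA (19.7, others 17.3 to 17.6), and TEK had 0.0293 CPM in replicate 1 and 0 in the others. In SKOV-3, AZIN1 was at 297.7 CPM in replicate 4 (others 281 to 284) and ELOVL7 at 65.7 CPM in replicate 3 (others 53.4 to 54.1).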

How the results depend on the processing

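The number of silent members stayed at 9 in PEO-4 under all definitions tried. It stayed at 4 for SKOV-3 and 0 for T1074, except under a mean TPM of 0.1, with 6 and 2. Leaving out any library gave 9, 4 and 0. For the wider window, silence rose in SKOV-3 to 14 genes under a mean CPM of 0.1 and 24 under a mean TPM of 0.1, and in T1074 to 1 gene at up to 3 counts per library, 4 under a mean CPM of 0.1 and 11 under a mean TPM of 0.1. Leaving out a library gave 21 to 22 silent genes for PEO-4 and 7 to 8 for SKOV-3. The p16INK4a share of CDKN2A in T1074 was 57.2% to 62.0% without each library.

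Counts of called genes stayed within 1.5 times, apart from 8265 for SKOV-3 against T1074 with a fold threshold of 1 on the log2 scale, and without each library they were 14258 to 15163 (PEO-4 against T1074), 12883 to 13731 (SKOV-3 against T1074) and 14513 to 15791 (PEO-4 against SKOV-3). Scaling by library size only moved the median of all genes by more than 0.1, to -0.17 for PEO-4 against T1074 and -0.23 for SKOV-3 against T1074.

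The segment medians of PEO-4 against T1074 from the arm's end to 18 Mb, 18 to 29 Mb, 29 to 39 Mb and the long arm moved to -0.63, -1.95, -0.40 and -0.89 with library size only. With the size factors of DESeq2 they were -0.39 (arm's end to 18 Mb), -0.16 (29 to 39 Mb) and -0.65 (long arm), and with a CPM of at least 1 in 4 libraries -0.96 (arm's end), -1.58 (18 to 29 Mb) and -0.79 (long arm). Leaving out the genes between HACD4 and ELAVL2, an alternative chosen after seeing the data, gave -1.28 from 18 to 29 Mb in PEO-4. For SKOV-3 against T1074 library size only gave -0.81, -1.27, -0.31 and -0.22 in the same order, and the CPM filter -0.93 from 18 to 29 Mb. For PEO-4 against SKOV-3 the long arm was at -0.64 (library size only), -0.65 (DESeq2 size factors) and -0.78 (CPM filter), and 29 to 39 Mb at -0.04 (library size only) and -0.05 (DESeq2 size factors). Without each library the medians, in the order of the segments, were -0.50 to -0.20, -1.86 to -1.67, -0.27 to -0.09 and -0.73 to -0.58 for PEO-4 against T1074. They were -0.67 to -0.55, -1.20 to -1.04, -0.12 to -0.03 and -0.06 to 0.03 for SKOV-3 against T1074, and -0.51 to -0.36, -0.27 to -0.10, -0.09 to -0.02 and -0.69 to -0.60 for PEO-4 against SKOV-3. The cause was not tested.

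The 115 values of named genes followed here were those past the test (114), with PRMT5 in SKOV-3 the exception. Comparisons that did not pass, such as RPS6 in both lines and RRAGA and CDK6 in SKOV-3, were left out. Values of MIR31HG and ENSG00000265194, in the stretch chosen with its levels known, were kept in. Of 2526 alternative values, 2 changed sign. Both counts follow from this choice, and list genes were also named for a large change past this test, so no robustness is read from them. Counts from length-scaled TPM turned CBX8 (-0.23) and IFT74 (0.13) in SKOV-3. Calls were lost in 87 of the alternative values, 35 of them under an adjusted p of 0.01 or the fold threshold. Scaling by library size only ended the calls of CUL3 in PEO-4 and of CLNS1A, SKIC2 and SKIC8 in SKOV-3. The replicate numbers did not pair the libraries (correlation of same-numbered libraries -0.077 to 0.072, and 1, 0 and 1 of 4 libraries closest to their own number). The replicate block gave 14413, 13094 and 14658 calls in the comparisons in the order above, and RB1 and IFT74 in SKOV-3 were no longer called. IFNE, ELAVL2 and the interferon genes rest on few counts per library, and T1074 replicate 1 had the lowest total.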
